A study of Mus musculus with 15 samples.

Results

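A set of 9 genes of T cell recruitment was followed in pancreas RNA, made up of the chemokines Cxcl9, Cxcl10, Ccl5, Cxcl16, Ccl19 and Ccl21a, and the receptors Cxcr3, Cxcr6 and Ccr7. They are 9 of the 15175 genes listed in all 3 deposited count tables. The set was put together by name because Cxcl9 and Ccl5 were higher in MC libraries than in their controls, so every value of the 9 genes in the MC experiment is given as a description with no test. The rule names no value of the other 2 experiments, and tests are given there, although earlier results of those libraries were known as well when the set was made.

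Chemokines are small secreted proteins that bind G protein-coupled receptors and direct the movement of leukocytes. CXCL9 and CXCL10 are induced by interferons and draw activated T cells and NK cells through CXCR3, whereas CCL5 is made by T cells and NK cells themselves as well as by other cells and binds several receptors. CXCL16 is a membrane-bound chemokine that is also shed and binds CXCR6 on T cell subsets, and CCL19 and CCL21 are the ligands of CCR7, which guides naive T cells and mature dendritic cells into lymphoid tissue. In the pancreas, leukocytes enter the tissue in pancreatitis and around precancerous lesions.

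The 15 libraries form 6 groups of C57BL/6 mice, and per the labels each library was made from pooled pancreas RNA of 3 mice. After tamoxifen, Cre from the elastase I promoter (Bac-cre, B in the labels) switches on the transgene in acinar cells, which then express HPK1 (HC) or its kinase-dead form M46 (MC). MC (M46/B, n = 3) and MC control (B, n = 3) mice were 2 months old and were treated with cerulein, which overstimulates acinar secretion and so produces pancreatitis. HC (HPK1/B, n = 3) and HC control (wild type, n = 2) mice were 4 months old and had cerulein as well. KC mice are labelled Ras/B (n = 2, 15 months), and KMC mice (M46/Ras/B, n = 2, 9 months) carry M46 in addition. Each group was compared with its own control within its own table, and levels set across the tables are not tested.

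Totals ran from 29766575 to 38745907 counts per library. Levels are given as CPM (counts relative to the library total), adjusted by TMM unless stated. The upper limit for a gene with 0 counts is 3 counts, which equal 0.0774 to 0.101 CPM by library total alone. After TMM the same 3 counts differ more between libraries, and they equal 0.204 CPM in KC 1. A list of acinar genes took 38.1 to 57.6% of the counts in the MC experiment, 50.2 and 25.9% in KMC, and 70.9 and 62.0% in KC. In the HC experiment it took 5.95 to 9.27%, so the defining genes of the labelled tissue were scarce in all 5 libraries of that experiment. Map4k1, which encodes HPK1, was at 6.79 to 8.32 CPM in MC against 2.34 to 4.14 CPM in its controls, and at 5.92 and 11.4 CPM in KMC against 0.545 and 1.55 CPM in KC. The libraries labelled HC held 5.05 to 7.93 CPM of Map4k1 and their controls 11.5 and 15.4 CPM, which goes against the label. The sources used here do not say whether transgene reads were counted in Map4k1. Ptprc, a gene of all leukocytes, differed from controls in the same direction as Map4k1 in each experiment. The part of leukocytes in the Map4k1 levels was not tested. In the library labelled HC 3 the Y-linked Ddx3y was at 48.4 CPM and Xist at 0.761 CPM, while Xist was at 579 to 929 CPM and Ddx3y at 0 counts in the other 4 libraries of that experiment. Both KC libraries had Ddx3y (10.7 and 17.3 CPM) and at most 0.681 CPM of Xist, whereas both KMC libraries had 306 and 406 CPM of Xist and 0 counts of Ddx3y. In KMC against KC the genotype therefore cannot be told apart from the sex and age of the mice. The acinar share was also lower in both KMC libraries than in both KC libraries, and its part in the members' levels was not tested.

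Cxcl9 (ENSMUSG00000029417, GRCm38 chr5:92321347-92328079) and Cxcl10 (ENSMUSG00000034855, chr5:92346638-92348889) lie on the minus strand with 18558 bases between them. Ccl19 (ENSMUSG00000071005, chr4:42754525-42756577) and Ccl21a (ENSMUSG00000094686, chr4:42772860-42773993) are also neighbours on the minus strand, with 16282 bases between them. Promoter sequences were at hand for 6 of the 9 genes (RefSeq, GRCm38.p6). The 250 bases before the RefSeq start are shown for both neighbouring pairs. Each pair holds ligands of the same receptor, and their levels are set side by side in what follows. For Ccl19 the RefSeq start lies inside the gene as placed above, so most of its window lies within that gene. The sequences run 5′ to 3′ along the gene, and capitals mark matches on either strand to an interferon-stimulated response element (ISRE, read as GAAA, 2 bases of any kind and GAAA), a gamma-activated site (GAS, TTCNNNGAA), an NF-kB site (searched under its usual consensus) or a TATA box (TATAAA).
Cxcl9 (chr5:92328080-92328329): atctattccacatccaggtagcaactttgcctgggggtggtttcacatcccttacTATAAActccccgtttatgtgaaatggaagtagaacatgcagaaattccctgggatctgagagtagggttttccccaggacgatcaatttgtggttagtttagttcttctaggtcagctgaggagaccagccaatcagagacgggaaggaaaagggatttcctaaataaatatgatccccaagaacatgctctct
Cxcl10 (chr5:92348890-92349139): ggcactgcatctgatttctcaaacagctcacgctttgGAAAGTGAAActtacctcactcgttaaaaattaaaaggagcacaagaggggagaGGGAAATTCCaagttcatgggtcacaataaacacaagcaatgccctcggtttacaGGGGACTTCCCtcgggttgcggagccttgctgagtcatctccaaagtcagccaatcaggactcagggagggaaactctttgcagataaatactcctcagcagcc
Ccl19 (chr4:42756366-42756615): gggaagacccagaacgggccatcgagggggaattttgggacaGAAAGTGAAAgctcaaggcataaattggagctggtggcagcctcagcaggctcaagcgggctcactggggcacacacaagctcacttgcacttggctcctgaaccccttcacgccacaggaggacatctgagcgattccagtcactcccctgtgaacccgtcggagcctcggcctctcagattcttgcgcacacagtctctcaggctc
Ccl21a (chr4:42773992-42774241): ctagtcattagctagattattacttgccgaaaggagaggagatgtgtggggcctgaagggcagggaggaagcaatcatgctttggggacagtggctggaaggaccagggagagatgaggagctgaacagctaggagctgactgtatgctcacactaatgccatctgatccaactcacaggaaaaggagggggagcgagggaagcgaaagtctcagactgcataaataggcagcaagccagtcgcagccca

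The capitals in Cxcl10 are 1 ISRE match from base -213 to -204 before the start, 1 NF-kB match from -159 to -150 and 2 overlapping NF-kB matches from -104 to -94. Cxcl9 had a TATA box match from -195 to -190 and Ccl19 an ISRE match from -208 to -199, which lies within the Ccl19 gene as placed above. The windows of Ccl21a, Cxcr3 and Cxcr6 held none of these 4 letter patterns, and part of the Cxcr3 window also lies within its gene. Of all 32817 promoters of 300 bases (250 before and 50 after the start), 3.43% held the ISRE letters, 8.29% the GAS letters, 8.46% the NF-kB letters and 13.6% the TATA letters. A match describes letters and is not evidence of a bound factor.

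Cxcl9 had the largest log2 fold change of the members in the MC experiment and in the HC experiment, in opposite directions. It was at 3.62, 4.77 and 9.93 CPM in the 3 MC libraries and at 0.595, 0.268 and 0.764 CPM in their controls. The lowest MC library was thus well above the highest control, and the log2 fold change was 3.53 (standard error 0.52). In the libraries labelled HC, Cxcl9 was at 3.54, 1.46 and 1.08 CPM against 16.1 and 8.58 CPM in their controls. Here all 3 libraries labelled HC lay below both controls. The log2 fold change was -2.60 (95% interval -3.63 to -1.56, edgeR's adjusted p = 0.0952), and it ran from -3.27 to -2.08 with each library left out, with -2.31 without the library labelled HC 3 (edgeR's adjusted p = 0.166). KMC libraries had 2.41 and 2.99 CPM of Cxcl9, while KC libraries had 0.749 and 0.581 CPM. Both KMC libraries were above both KC libraries, with a log2 fold change of 2.03 (95% interval 0.99 to 3.08, edgeR's adjusted p = 0.102).

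Cxcl10, the neighbouring ligand of the same receptor, was at 3.45, 10.3 and 15.9 CPM in MC and at 1.26, 1.85 and 1.03 CPM in controls, with no overlap. The log2 fold change was 2.83 (standard error 0.55), and MC 1 was the lowest MC library for both ligands. Libraries labelled HC had 1.0, 1.05 and 0.793 CPM of Cxcl10, below the 4.13 and 1.87 CPM of their controls. The controls themselves differed more than 2-fold, and the log2 fold change was -1.65 (95% interval -2.43 to -0.88, edgeR's adjusted p = 0.135), or -1.55 without the library labelled HC 3 (edgeR's adjusted p = 0.281). It was -0.98 without HC control 1 (edgeR's adjusted p = 0.513) and -2.12 without HC control 2 (edgeR's adjusted p = 0.157). In KMC, Cxcl10 was at 2.01 and 1.55 CPM, against 0.204 and 0.271 CPM in KC, where these levels rest on 3 and 7 counts. The log2 fold change was 2.86 (95% interval 1.62 to 4.11, edgeR's adjusted p = 0.0821). The exons of Cxcl10 overlap those of Art3 on the other strand over 133 bases, and the strand setting of the counting is not given in the sources used here.

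Cxcr3 (ENSMUSG00000050232, chrX:101731535-101734269), the receptor of both ligands on T cells and NK cells, was low in the MC experiment, at 0.642, 0.987 and 1.16 CPM in MC and 0.430, 0.357 and 0.0899 CPM in controls. These groups did not overlap (log2 fold change 1.61, standard error 0.51), but the lowest control rests on 2 counts. In the HC experiment the receptor was at 4.70, 1.68 and 1.71 CPM in libraries labelled HC and at 6.40 and 3.25 CPM in controls. The library labelled HC 1 lay between both controls and the other 2 lay below them (log2 fold change -0.83, 95% interval -1.89 to 0.22, edgeR's adjusted p = 0.511). KMC libraries had 1.74 and 1.88 CPM and KC libraries 0.545 and 0.542 CPM of Cxcr3 (log2 fold change 1.73, 95% interval 0.64 to 2.83, edgeR's adjusted p = 0.132).

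**Figure D1:**
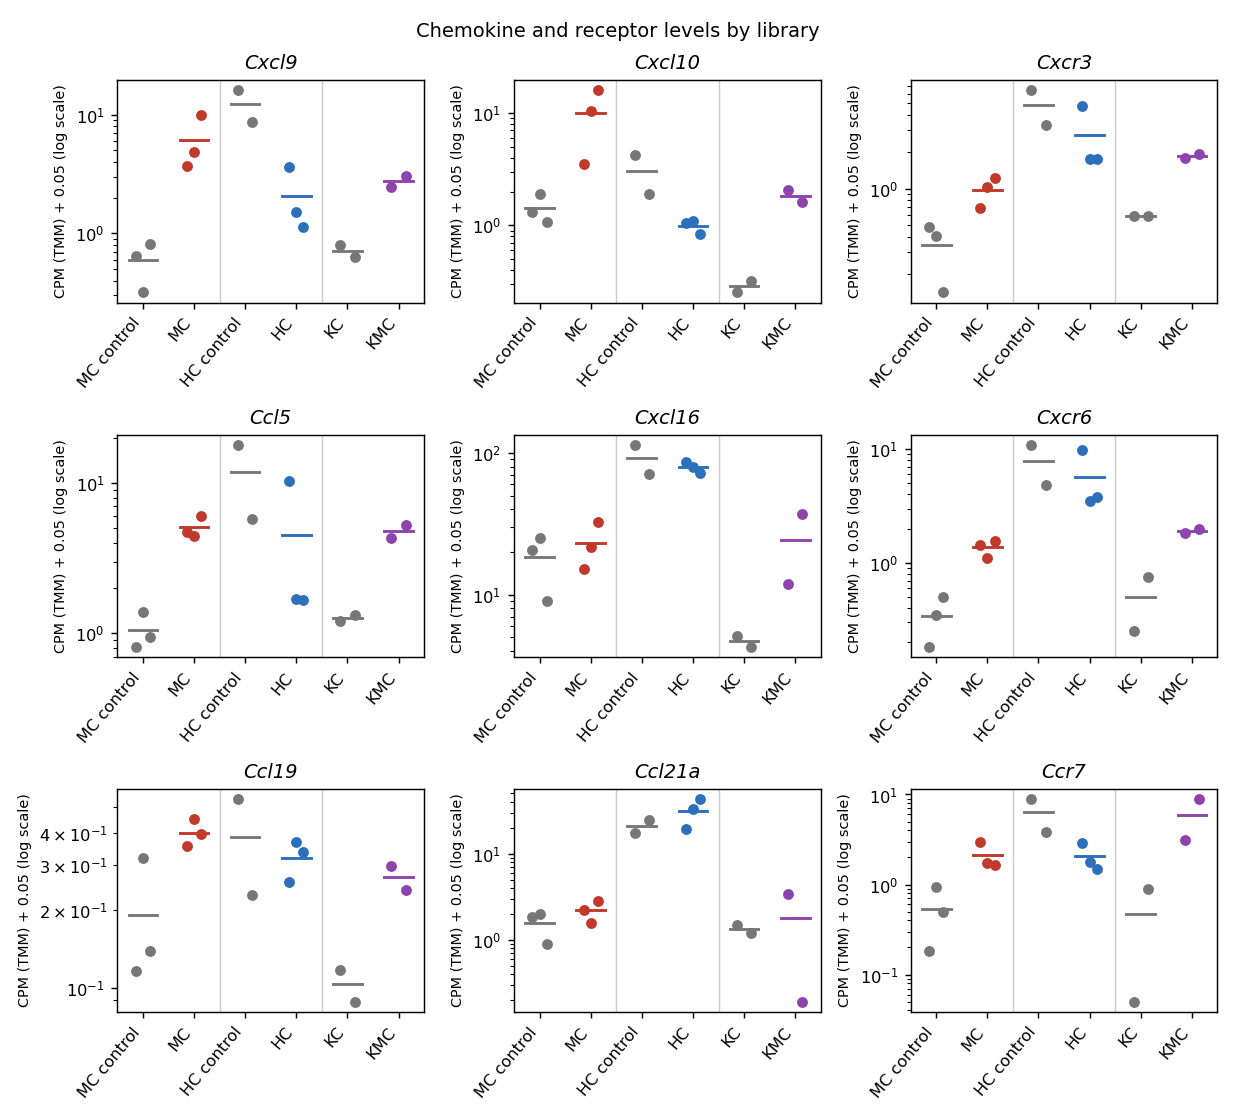
Levels of the 9 genes in each of the 15 libraries, as CPM scaled by TMM plus 0.05 on log axes that differ between panels; points are libraries, horizontal lines are group means, and vertical lines separate the 3 experiments. For Cxcl9, Cxcl10 and Ccr7, all MC libraries lie above their controls and all libraries labelled HC lie below theirs, and both KMC libraries lie above both KC libraries for every gene except Ccl21a.

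Ccl5 (ENSMUSG00000035042, chr11:83525778-83530518), the other gene behind the choice of the set, was at 4.67, 4.42 and 6.00 CPM in MC and at 0.760, 1.34 and 0.899 CPM in controls. Its MC libraries were close to each other (log2 fold change 2.32, standard error 0.28). Libraries labelled HC had 10.2, 1.65 and 1.62 CPM against 17.9 and 5.73 CPM in controls. The library labelled HC 1 stood far above the other 2 and between the controls, so that the groups overlapped (log2 fold change -1.39, 95% interval -3.13 to 0.34, edgeR's adjusted p = 0.505). The same library had 6.97 CPM of Cd8a, which encodes the co-receptor of cytotoxic T cells, where the mean of all 3 was 2.79 ± 3.62 CPM (SD, n = 3); the part of such cells in the Ccl5 level was not tested. In KMC, Ccl5 was at 4.25 and 5.22 CPM against 1.16 and 1.28 CPM in KC (log2 fold change 1.95, 95% interval 1.08 to 2.83, edgeR's adjusted p = 0.0830).

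Cxcl16 (ENSMUSG00000018920, chr11:70453983-70459984) differed from the other ligands in MC. It was at 15.2, 21.5 and 32.5 CPM in MC and at 20.7, 25.2 and 8.94 CPM in controls, and these ranges overlapped (log2 fold change 0.33, standard error 0.40). In the HC experiment it was at 86.2, 79.1 and 72.1 CPM in libraries labelled HC and 114 and 70.9 CPM in controls. The log2 fold change was -0.23 with a 95% interval of -0.63 to 0.17 (edgeR's adjusted p = 0.655). KMC libraries had 11.9 and 36.9 CPM, more than 3-fold apart, while KC libraries had 5.04 and 4.22 CPM. Both KMC libraries were above both KC libraries (log2 fold change 2.40, 95% interval 1.32 to 3.48, edgeR's adjusted p = 0.0837). Exons of Cxcl16 overlap those of Zmynd15 on the other strand over 552 bases.

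Cxcr6 (ENSMUSG00000048521, chr9:123806475-123811760), the receptor of CXCL16, was at 1.39, 1.06 and 1.51 CPM in MC and at 0.132, 0.298 and 0.449 CPM in controls. The groups did not overlap (log2 fold change 2.19, standard error 0.45), unlike those of its ligand. Libraries labelled HC had 9.72, 3.46 and 3.77 CPM of the receptor against 10.9 and 4.74 CPM in controls, with HC 1 again above the other 2 (log2 fold change -0.46, 95% interval -1.54 to 0.61, edgeR's adjusted p = 0.746). In KMC it was at 1.77 and 1.92 CPM, and in KC at 0.204 and 0.697 CPM, the lower of which rests on 3 counts (log2 fold change 1.95, 95% interval 0.62 to 3.29, edgeR's adjusted p = 0.146).

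Ccl19 and Ccl21a encode the ligands of CCR7. Ccl19 had 9, 17 and 14 counts in MC and 2, 9 and 2 counts in controls, too few for the filter on low counts, so no fold change is given there. It had 7, 10 and 9 counts in libraries labelled HC and 17 and 7 counts in controls (log2 fold change -0.29, edgeR's adjusted p = 0.854), and 10 and 16 counts in KMC against 1 count in each KC library (edgeR's adjusted p = 0.244), where no fold change is given. Ccl21a was at 2.20, 1.53 and 2.81 CPM in MC and at 1.82, 1.94 and 0.854 CPM in controls, which overlapped (log2 fold change 0.49, standard error 0.38). In libraries labelled HC it was at 19.1, 33.0 and 42.7 CPM against 17.2 and 24.3 CPM in controls. It was the only member with a positive log2 fold change in that comparison, 0.60 (95% interval -0.07 to 1.27, edgeR's adjusted p = 0.451), and its groups overlapped. KMC 1 had 3.37 CPM of Ccl21a and KMC 2 had 0.143 CPM, on either side of the 1.43 and 1.16 CPM of KC. The log2 fold change of 0.42 (95% interval -1.85 to 2.69, edgeR's adjusted p = 0.841) turned to -3.16 without KMC 1. Counts of both ligands are uncertain, since 39.3% of the 100-base stretches of Ccl19 transcripts and 50.3% of those of Ccl21a also occur in near-identical copies.

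Ccr7 (ENSMUSG00000037944, chr11:99144196-99155077), the receptor of both, was at 2.94, 1.67 and 1.58 CPM in MC and at 0.132, 0.893 and 0.449 CPM in controls. All MC libraries were above all controls (log2 fold change 2.03, standard error 0.60). Libraries labelled HC had 2.87, 1.75 and 1.43 CPM against 8.78 and 3.76 CPM in controls, and all 3 lay below both controls. The log2 fold change was -1.63 (95% interval -2.51 to -0.76, edgeR's adjusted p = 0.173), or -1.45 without the library labelled HC 3 (edgeR's adjusted p = 0.326). Leaving out HC control 1 gave -0.90 (edgeR's adjusted p = 0.608), and leaving out HC control 2 gave -2.12 (edgeR's adjusted p = 0.176). KMC libraries had 3.10 and 8.78 CPM of Ccr7, while KC libraries had 0 and 22 counts, the latter 0.851 CPM. The fitted log2 fold change of 3.64 (95% interval 1.56 to 5.71, edgeR's adjusted p = 0.116) depends on how the 0 is handled. In each experiment the log2 fold change of Ccr7 was larger in size than that of Ccl21a, a difference that was not tested.

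**Figure D2:**
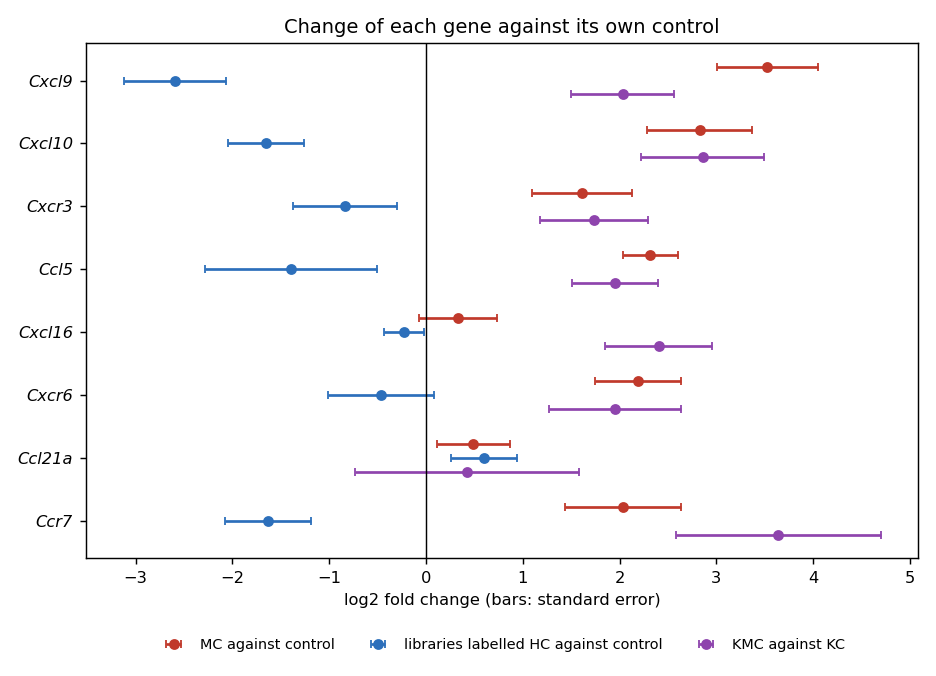
Log2 fold change of 8 of the 9 genes against their own controls, with bars for the standard error of the fit; Ccl19 is left out for its low counts. Points for MC and KMC lie to the right of 0 for all 8 genes, and points for the libraries labelled HC lie to the left for all but Ccl21a.

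In MC, 7 of the 9 genes had every library above every control, the exceptions being Cxcl16 and Ccl21a, and 10.9% of the 13902 genes tested had groups apart in that direction. The share of all genes called in MC was 0% with edgeR. Nothing is read from these counts, since the set was chosen on the same contrast. In the HC experiment, edgeR called 0 of 9 members (adjusted p up to 0.05 with a log2 fold change of 1 or more in either direction), where it called 0.565% of all 18407 genes. Cxcl9, Cxcl10 and Ccr7 were lower at an unadjusted p under 0.05 (3 of 9, against 7.47% of all genes), and DESeq2 called the same 3 genes with adjusted p-values of 2.04e-05, 0.00869 and 0.00987 (against 1.3% of all genes that it tested). For these 3 genes all libraries labelled HC lay below both controls, as did 16.1% of all genes. With fewer libraries more genes of any kind come apart. In either direction, 3 members (33.5% of all genes) were apart with all libraries, 7 (54.2%) without HC 1, 5 (58.3%) without HC control 1, 9 (62.1%) without HC control 2, and 3 without HC 2 (40.9%) or HC 3 (41.5%).

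In KMC against KC, edgeR called 0 of 9 members, where it called 0.0191% of all 15733 genes, or 3 genes, of which 2 were Xist and Ddx3y. At an unadjusted p under 0.05, 7 of 9 members were higher (all but Ccl19 and Ccl21a), against 16.1% of all genes. DESeq2 called 4 members as higher, Cxcl9, Cxcl10, Ccl5 and Cxcl16, with adjusted p-values of 0.0208, 0.00928, 0.00685 and 4.56e-04, against 9.94% of all genes that it tested. Both KMC libraries were above both KC libraries for 8 of 9 members, against 34.4% of all genes. The median log2 fold change of the members was 2.03, against 0.03 over all genes. Scaling by library size alone moved the median of all genes from 0.03 to 1.47, and 8 members were then called, along with 4714 of the 15733 genes. Leaving out KMC 1 gave 3 called members, Ccl5, Cxcl16 and Ccr7, among 2312 called of 16957 genes.

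Ptprc encodes CD45, which all leukocytes carry, and its level differed in the same direction as most members. It was at 43.9 ± 7.47 CPM (SD, n = 3) in MC against 13.9 ± 5.71 CPM (SD, n = 3), at 48.9 ± 13.8 CPM (SD, n = 3) in libraries labelled HC against 94.4 ± 31.0 CPM (SD, n = 2), and at 46 ± 17.9 CPM (SD, n = 2) in KMC against 6.60 ± 4.90 CPM (SD, n = 2) in KC. In bulk tissue, fewer cells of a type and less RNA per cell cannot be told apart. Counts of each member per 100 Ptprc counts in the same library do not depend on the scaling. In MC, Cxcl9 was at 9.44 to 18.9 per 100 Ptprc counts against 1.35 to 9.09 in controls, and Ccl5 at 10.8 to 12.2 against 5.68 to 10.7. Of all genes, 0.201% were apart and higher on this scale. Cxcl9 and Ccl5 are the genes on which the set was chosen in MC, so nothing is read from this. Cxcl16 was at 39.7 to 62.0 against 106 to 155, and Ccl21a at 3.73 to 5.73 against 9.77 to 13.6, but 89.9% of all 13902 genes were apart and lower per Ptprc count, and both overlapped their controls when counted per macrophage marker count. The ratios of the other 5 members overlapped in MC, among them those of the 3 receptors. Per macrophage marker count Cxcl10, Cxcr6, Ccl19 and Ccr7 were apart and higher besides Cxcl9 and Ccl5, as were 3.09% of all genes.

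Per 100 Ptprc counts, libraries labelled HC had 2.20 to 5.66 of Cxcl9 against 11.8 to 13.8 in controls, and 2.91 to 4.99 of Ccr7 against 5.19 to 7.55. Of all genes, 0.674% were apart and lower on this scale. Cxcl16 was at 138 to 226 against 97.7 to 98.2, as 66.8% of all genes were apart and higher. Cxcl10, Ccl5, Cxcr3, Cxcr6, Ccl19 and Ccl21a overlapped. Per macrophage marker count, Cxcl9 and Cxcl10 were apart and lower in libraries labelled HC (0.842% of all genes), whereas Ccr7 overlapped its controls. On that scale Cxcl16, Ccl19 and Ccl21a were apart and higher, as were 49.5% of all genes. In KMC, Ccr7 was at 9.27 to 15.0 per 100 Ptprc counts against 0 to 8.46 in KC, and it was the only member apart with each of the 3 denominators (per Ptprc, 1.17% of all genes were apart and higher). Cxcr3 (3.21 to 5.22 against 5.38 to 17.4), Cxcr6 (3.27 to 5.30 against 6.52 to 6.92) and Ccl21a (0.244 to 10.1 against 11.5 to 45.7) were apart and lower, as were 89% of all genes, and the ratios of the other 5 members overlapped. Cxcr3 and Cxcr6 overlapped KC per T cell and NK cell marker count and per macrophage marker count. Ccl21a overlapped KC per T cell and NK cell marker count. No test was run on these ratios.

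**Figure D3:**
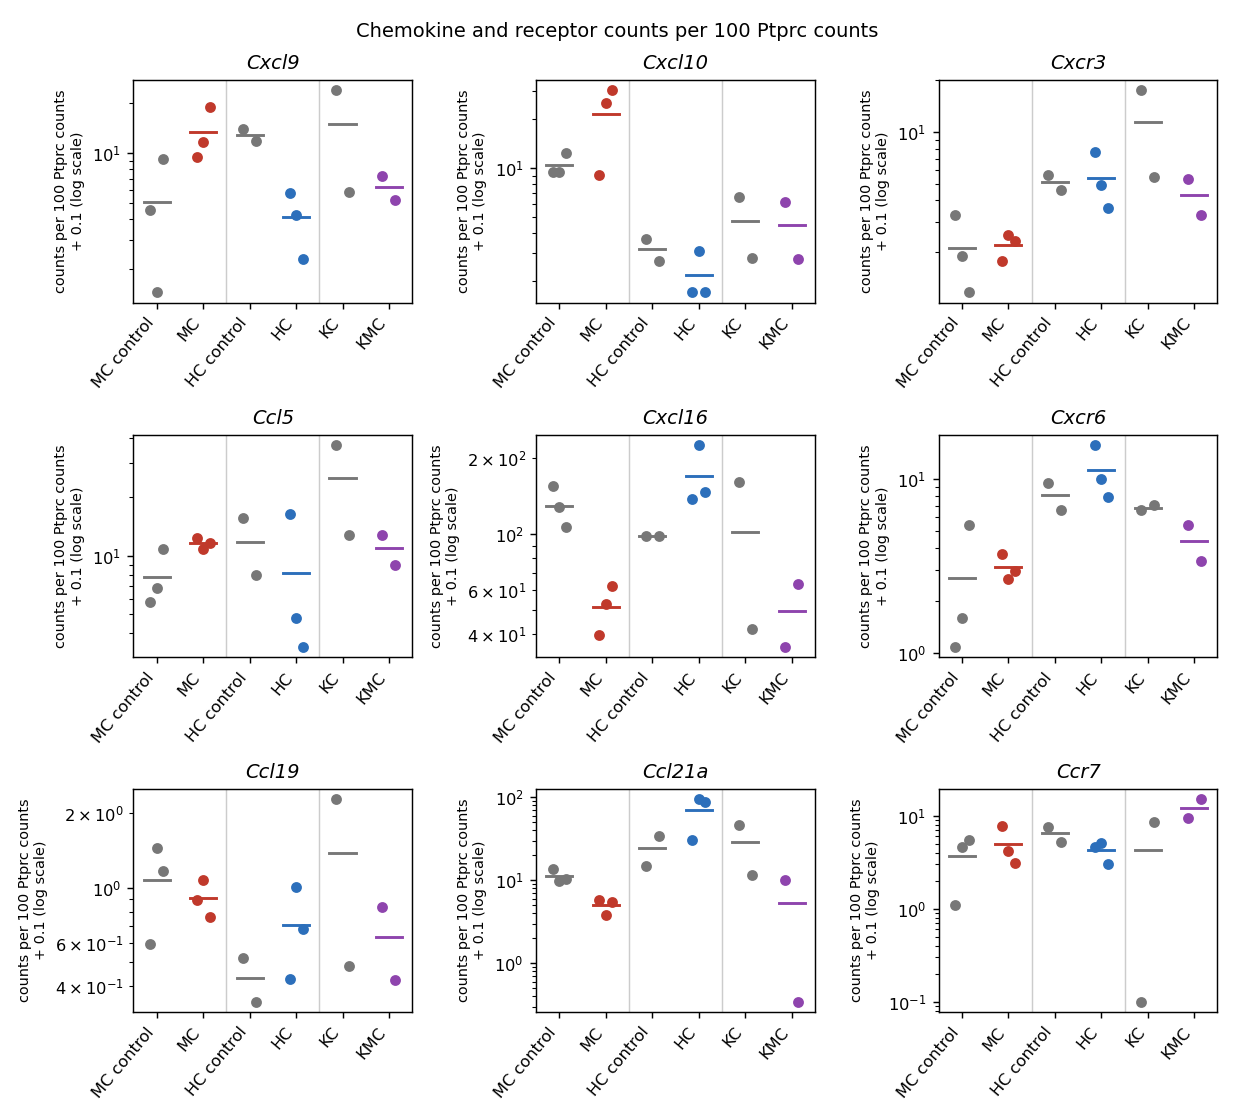
Counts of each gene per 100 Ptprc counts in the same library, plus 0.1, on log axes that differ between panels; points are libraries and horizontal lines are group means. Cxcl9 lies above its controls in MC, as do 0.201% of all genes, and below them in the libraries labelled HC, as do 0.674%. Cxcl16 lies below its controls in MC, as do 89.9% of all genes, and above them in the libraries labelled HC, as do 66.8%.

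Markers of the cells that carry these receptors differed in the same direction as most members, and their part in the members' levels was not tested. T cell and NK cell markers summed to 52.4 to 57.0 CPM in MC against 14.1 to 29.3 CPM (median log2 fold change 2.00). All 23 listed genes were apart and higher there, as were 10.9% of all genes. The markers summed to 251 to 461 CPM in libraries labelled HC against 501 to 616 CPM (median -0.73), and to 51.8 to 131 CPM in KMC against 16.1 to 19.1 CPM (median 2.09). Ifng, the gene of interferon gamma, was not listed in the MC table, had 6 counts in the libraries labelled HC together and 11 in their controls, and had 5 counts in KMC and 0 in KC. Relative to the summed T cell and NK cell markers, Cxcl9 was apart in MC, at 6.35 to 17.9 counts per 100 marker counts against 0.916 to 5.41 in controls. On this scale 0.482% of all genes were apart and higher in MC. Nothing is read from this ratio in MC, since the set was chosen on Cxcl9 in the same libraries. In the HC experiment the same ratio was 0.343 to 0.770, and its control values were 1.71 and 2.61 (1.17% of all genes were apart and lower). In KMC the ratio overlapped KC, at 2.28 to 4.64 against 3.04 to 4.64.

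B cell markers stood out in MC 1, where they summed to 84.8 CPM, against 20.8 and 6.44 CPM in the other MC libraries and 1.84 to 3.78 CPM in controls. MC 1 was also the MC library with the most Ccr7, which B cells express too, and the least Cxcl9 and Cxcl10; without MC 1 the log2 fold change of Ccr7 was 1.71, within its range over the libraries left out of 1.58 (without MC control 1) to 2.87 (without MC control 2). B cell markers were lower in libraries labelled HC (18.4 to 19.5 CPM against 33.3 to 50.4 CPM), where Cd79a, a chain of the B cell receptor complex, was the only gene of the lists that edgeR called in any experiment (log2 fold change -1.31, edgeR's adjusted p = 0.0499). In KMC they summed to 19.7 to 25.8 CPM against 1.23 to 12.4 CPM. Dendritic cell markers had median log2 fold changes of 1.37 in MC, -0.68 in the HC experiment and 2.80 in KMC, and macrophage markers of 0.93, -0.84 and 2.6. In KMC all 11 macrophage markers were higher at an unadjusted p under 0.05 (16.1% of all genes) and by DESeq2 (9.94%). Lymphatic and lymphoid stroma markers, a list that also holds Cxcl13 and other cytokine genes, had medians of 0.44, -0.02 and 0.90.

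**Figure D4:**
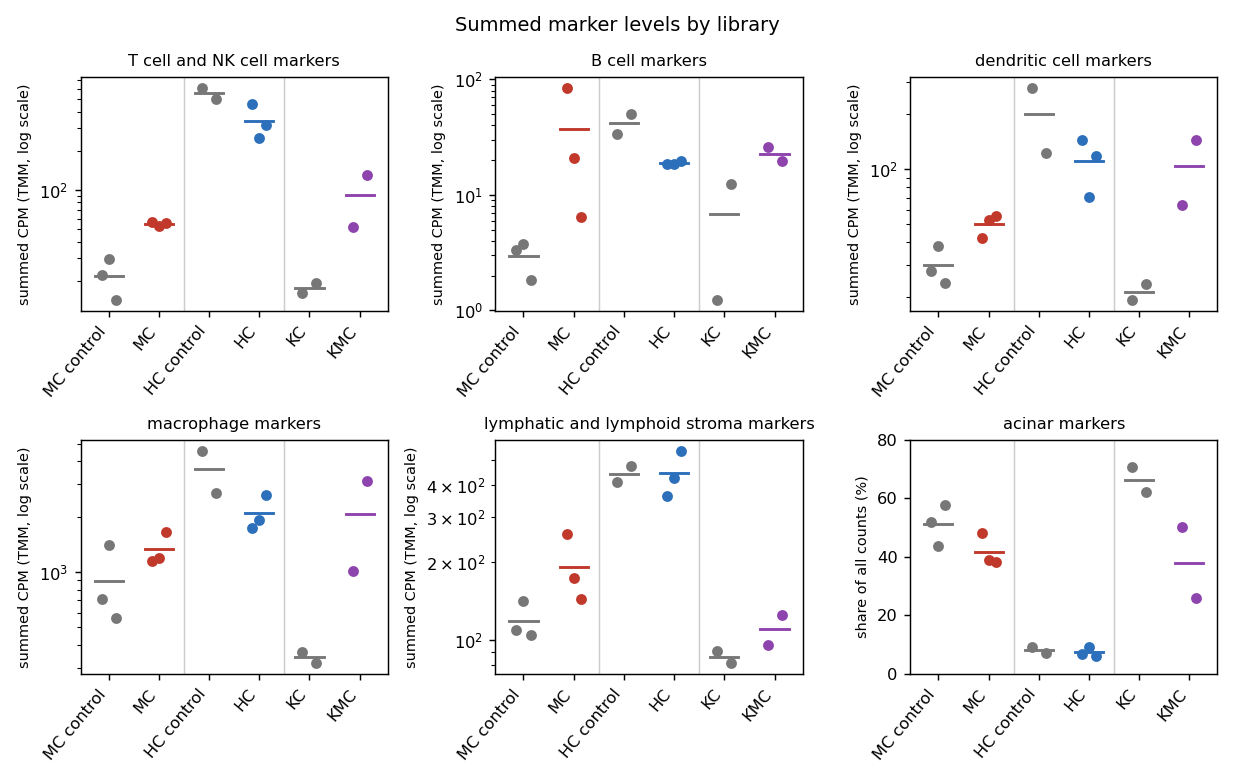
Summed level of 5 marker lists, as CPM scaled by TMM on log axes, and share of all counts held by acinar markers in percent, per library; points are libraries and horizontal lines are group means. T cell and NK cell markers lie above their controls in MC and KMC and below them in the libraries labelled HC, and the acinar share is under 10% in all 5 libraries of the HC experiment.

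The wider chemokine system was described by lists of 16 other lymphocyte chemoattractants and 18 of their receptors. EdgeR called 0 of them in each experiment. In MC, 5 of 11 tested chemoattractants were higher at an unadjusted p under 0.05 (9.2% of all genes) and 2 by DESeq2 (3.13%), with Cxcl13, the B cell chemokine (log2 fold change 3.73, standard error 1.24), and Ccl8, a ligand of inflammatory receptors (2.30, standard error 0.39), as the largest. In libraries labelled HC, 3 of 14 were higher (8.39% of all genes) and 4 lower (7.47%) at that unadjusted p, and DESeq2 called 1 as lower (1.3%). Among them Ccl20, a ligand of CCR6, had a log2 fold change of 2.69 (edgeR's adjusted p = 0.221) and Ccl22, a CCR4 ligand made by dendritic cells, one of -1.82 (edgeR's adjusted p = 0.274). In KMC, 6 of 13 were higher at an unadjusted p under 0.05 (16.1% of all genes) and 4 by DESeq2 (9.94%). They were led by the CCR4 ligand Ccl17 (log2 fold change 4.65, edgeR's adjusted p = 0.0857) and Ccl8 (4.2, edgeR's adjusted p = 0.0796).

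Of the other receptors, 8 of 13 tested were higher in MC at an unadjusted p under 0.05 (9.2% of all genes) and 2 by DESeq2 (3.13%). Among them Cxcr5, the receptor of CXCL13, had a log2 fold change of 2.11. Libraries labelled HC had 7 of 18 lower at that p (7.47% of all genes) and 0 by DESeq2 (1.3%), with Ccr10 at -1.29 and Ccr3 at -1.16. In KMC, 10 of 17 were higher at that p (16.1% of all genes) and 6 by DESeq2 (9.94%), with Ccr2, the monocyte receptor, at 3.40 (edgeR's adjusted p = 0.0796). Regulators of the interferon gamma pathway had medians of 1.0 in MC, -0.28 in the HC experiment and 1.29 in KMC. Ciita, which drives MHC class II genes, had a log2 fold change of 1.5 in MC. The list of enzymes that shed or trim chemokines, such as Adam10 and Dpp4, had medians of 0.34, -0.51 and 1.1. Acinar markers had medians of -0.54, -0.07 and -2.01, ductal markers of -0.11, 0.33 and 0.49, fibroblast and endothelial markers of 0.61, -0.45 and 1.89, and housekeeping genes of 0.04, 0.18 and -0.07.

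Per kilobase of exon, Cxcl16 had the highest mean of the members in 5 of the 6 groups. It was at 7.63 ± 2.89 CPM per kilobase (SD, n = 3) in MC, followed by Ccl5 at 5.24 ± 0.886 and Cxcl10 at 4.38 ± 2.76, which did not differ from their neighbours beyond the spread. In MC controls the order was Cxcl16 at 6.05 ± 2.78, Ccl21a at 1.77 ± 0.682 and Ccl5 at 1.04 ± 0.315 CPM per kilobase (SD, n = 3), of which the last 2 overlapped. In libraries labelled HC, Ccl21a was first at 36.3 ± 13.6 and Cxcl16 second at 26.2 ± 2.34 CPM per kilobase (SD, n = 3), with overlapping values, whereas in their controls Cxcl16 was at 30.6 ± 10.2 and Ccl21a at 23.9 ± 5.80 (SD, n = 2), also overlapping. KMC had Cxcl16 first at 8.08 ± 5.87 and Ccl5 second at 4.93 ± 0.712 CPM per kilobase (SD, n = 2), with overlapping values. KC had Cxcl16 at 1.53 ± 0.192, Ccl21a at 1.49 ± 0.218 and Ccl5 at 1.27 ± 0.0883 (SD, n = 2), where Cxcl16 and Ccl21a overlapped. Ccl19 was last or, in MC controls, next to last in each group. The places of Ccl19 and Ccl21a are uncertain, since parts of their transcripts also occur in near-identical copies.

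Across the 15 libraries, with log2 CPM centred within each experiment, the genes most like each member were found among 12056 others. These correlations describe points that share group differences, depth and tissue makeup. Cxcl9 was most like H2-T24 (Pearson r = 0.92), Tgtp2 (0.91) and Ifi209 (0.91), and Cxcl10 was most like Irgm2 (0.98), Zbp1 (0.98) and Ddx58 (0.97), many of which are known as interferon-induced genes. Ccl5 was most like Il2rb (0.95), Ms4a4b (0.95) and Cd4 (0.94), and Cxcr3 was most like Ccl5 (0.95), Cd4 (0.94) and H2-Q6 (0.93). The genes most like Cxcr6 included Il2rb (0.93) and Ccl5 (0.93). Cxcl16 was most like Sept9 (0.98), Pdlim7 (0.98) and Sept8 (0.98), and Ccr7 was most like Rhoj (0.96), P2ry10 (0.96) and Traf1 (0.95). Ccl21a was most like Osgin1 (0.82), Ces1d (0.79) and the lymphatic endothelial gene Mmrn1 (0.77), and its r with the other 8 members ran from -0.33 to 0.16. Cxcl9 and Cxcl10 had an r of 0.89 with each other.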

How the data were processed

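RNA-Seq of mouse pancreas was analysed in 15 libraries, each from 3 pooled mice, so p-values measure the spread between libraries. The authors deposited raw counts per gene, without normalization, in 3 tables of 15175 (MC) or 49585 genes. The submitters' processing notes name STAR 2.6.1a and HTSeq 0.6.1 on GRCm38. The strand setting of the counting is not given in the sources used here. A deposited DESeq2 table of MC fold changes and p-values was not used.

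Groups follow the labels. Within each pair of groups, genes were filtered with filterByExpr, scaled by TMM and tested with edgeR 4.0.16 (quasi-likelihood, Benjamini-Hochberg over all genes tested) in R 4.3.3, and were called at an adjusted p up to 0.05 with a log2 fold change of 1 or more in either direction. For standard errors, log2 fold changes were divided by the root of F, and 95% intervals use the normal distribution. The scripts were tested on simulated data. DESeq2 1.42.0, other scalings, no filter, a shared fit, the replicate number as a block and leaving out each library were alternatives.

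Members and gene lists were chosen with earlier results of these data known. Named genes are the members, Map4k1, fixed cell type markers, the 2 largest changes per list and comparison with a mean of 1 CPM or more, and the 3 genes most alike each member by r of log2(CPM + 0.5). Xist, Ddx3y, Ifng and Adam10 were named outside this rule, and some genes that it names are not reported here. Gene positions and exon lengths come from GENCODE M21. Members had to be listed, not to pass a filter, and 8 of 9 passed it in MC and 9 of 9 in HC and KMC.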

Additional observations from a re-analysis of the deposited data

Results flagged for a closer look

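A set of 3 genes went in opposite directions in the MC and HC experiments, with every MC library above all of its controls and every library labelled HC below all of its own. Of all genes tested, 10.9% were apart and higher in MC and 16.1% were apart and lower in the HC experiment. The share of all genes that met both conditions was not counted, so the number of members that met both cannot be judged. The set was chosen because Cxcl9 and Ccl5 rose in MC, so the MC values are a description. The log2 fold changes against controls for Cxcl9 were 3.53 (MC) and -2.60 (libraries labelled HC), those for Cxcl10 were 2.83 and -1.65, and those for Ccr7 were 2.03 and -1.63. The difference between the experiments was not tested, since they have separate controls, tables and ages. The level of Ptprc went in the same directions as these 3 genes, and as Map4k1, in both experiments. Per Ptprc count, Cxcl9 stayed apart in both experiments, Cxcl10 overlapped its controls in both, and Ccr7 overlapped in MC and stayed apart in the HC experiment. The libraries labelled HC hold less Map4k1 than their controls and 1 of 3 has counts of the Y-linked Ddx3y.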

How the results depend on the processing

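In the HC experiment, edgeR called 0 members as reported, 3 with no filter on low counts, 3 by DESeq2 and 0 to 1 with each library left out (1 without HC 1, Cxcl9). It called 0 with the other scalings and in one fit with KMC and KC. In KMC against KC, edgeR called 0 members as reported, 8 by library size alone, 4 by DESeq2, 4 in one fit with the HC experiment and 0 to 3 with each library left out (3 without KMC 1). Of all genes, edgeR called 104 in HC, 395 with no filter and 0 to 379 with a library left out (379 without HC 1), and DESeq2 called 475. In KMC it called 3 genes, 4714 by library size alone, 9 with no filter, 3230 in one fit and 0 to 2312 with a library left out (2312 without KMC 1), and DESeq2 called 2130. In MC it called 0 genes, with 2038 at an unadjusted p under 0.05, and 0 to 718 with a library left out (718 without MC control 2, 171 without MC 1), and DESeq2 called 479.

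With the replicate number as a block, 1 member was called in HC and 5 in KMC (of 408 and 2464 genes), and 0 genes in MC. Same-numbered libraries had correlations of deviations from their group means of 0.0754, 0.327 and -0.356 in MC, 0.217 and 0.204 in HC and 0.124 in KMC, so the numbers were not taken to pair the libraries. With the block, Ccl21a in KMC turned to -0.77.

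The number of members with groups apart was 6 to 8 in MC over the libraries left out and scalings. With a library left out, 24 to 48.4% of all genes were apart in MC. In checks chosen after seeing the data, the number was 3 to 9 in HC (40.9 to 62.1% of all genes) and 8 to 9 in KMC (77.5 to 87.3%) over the libraries left out. Per macrophage markers in place of Ptprc, 5 members in HC were apart (50.4% of all genes) instead of 3 (67.5%). In MC 6 were apart (9.16%) instead of 4 (90.1%), and in KMC 3 (81.9%) instead of 4 (90.2%). The members apart were not the same. With each library left out, log2 fold changes in HC ran from -0.53 to 0.16 for Cxcl16, -1.11 to 0.26 for Cxcr6 and -0.85 to 0.58 for Ccl19, each positive without HC control 1, from -2.85 (without HC 1) to -0.35 for Ccl5 and from -1.50 to -0.27 for Cxcr3 (both smallest without HC control 1), and in KMC from -3.16 (without KMC 1) to 1.4 for Ccl21a, from 1.38 (without KMC 2) to 2.99 for Cxcl16 and from 1.39 (without KC 1) to 3.15 for Cxcr6. The causes were not tested. A group left with 1 library was assumed to vary like the other group. The filter, DESeq2 and the block give no separate overlap count in MC. Low counts limit Ccl19 everywhere and Cxcl10, Cxcr6 and Ccr7 in KC.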
